A study of Hakea laurina with 6 samples.

Results

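The contigs described here are the receptor-like kinases and leucine-rich repeat (LRR) proteins of *Hakea laurina*, a Proteaceae shrub of phosphorus-poor soils, in RNA-Seq of cluster roots. A contig is a transcript assembled from the reads without a genome, and it is named by the closest match in *Arabidopsis thaliana*. Members were all contigs of the annotated table that reached 1 CPM (counts scaled to library size) in every library of a root type and whose description held leucine-rich, receptor-like, receptor kinase, lectin, wall-associated, cysteine-rich RLK or malectin, without disease, NB-ARC or NBS. These were 130 of 7819 annotated contigs. The members were thus selected on their CPM and, since the annotated table holds contigs that differed between the root types in the authors' test, on the comparison described here, so all differences, and the calls of the fit made here, are given as descriptions without p-values.

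Roots came from plants about 3 yr old that were grown in hydroponics with 6.4 μM phosphate given only now and then, and every library shares this low-phosphorus treatment. TCR are tips of the lateral roots that bear clusters, and MCR are mature cluster roots, with 3 libraries each. The titles gave the root type, whereas the deposited tissue field gave TCR libraries as mature cluster roots and MCR libraries as tips. The titles were followed, and all directions would be the opposite if the tissue field were right. Nothing in the labels says that the libraries came from separate plants, so the spread between them may be technical.

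In plants, receptor-like kinases sit in the plasma membrane, with an outer part that binds a peptide, a hormone, a sugar polymer or the cell wall and an inner kinase that passes the signal on. The outer part names the family, and LRR kinases, lectin kinases, cysteine-rich kinases, wall-associated kinases and malectin-domain kinases are the large ones. In roots, LRR kinases are known for keeping the meristem, patterning the vascular tissue and sealing the endodermis, and many lectin and cysteine-rich kinases are known from responses to microbes.

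The libraries held between 13583740 counts in TCR1 and 19119494 counts in MCR3. Contigs of dividing cells and the meristem (6 of 10 listed genes, 9 contigs) summed to 364, 335 and 185 CPM in TCR1, TCR2 and TCR3 and to 29.1, 28.8 and 33.7 CPM in MCR1, MCR2 and MCR3. The root cap regulator SMB was at 40.4, 37.0 and 13.2 CPM in TCR and between 0.561 and 0.790 CPM in MCR. Contigs of phosphorus acquisition (6 of 7 listed genes, 20 contigs) summed to 947 to 1067 CPM in TCR and to 6360 to 10981 CPM in MCR. Summed markers of dividing cells and the root cap were thus high in the libraries titled as tips, and those of phosphorus acquisition in the libraries titled as mature cluster roots, which is the direction of the titles and not of the tissue field. Of the single contigs, 2 of the 9 of dividing cells and 3 of the 20 of phosphorus acquisition went the other way. Genes of the latter kind were reported by the study as higher in MCR from these same libraries, so they are no independent check of the titles. HalALMT1, the malate channel contig of the study, was at 4.72 to 11.8 CPM in TCR and 25.7 to 29 CPM in MCR. The median log2 fold change of all 49813 contigs tested was 0.57, MCR over TCR. TCR3 and MCR3 stood apart from the other libraries. Among annotated contigs with 1 CPM or more throughout a root type, TCR3 was the lowest tip in 2602 of the 3429 higher in TCR, with a median ratio to TCR1 and TCR2 of 0.651, and MCR3 was the highest in 46.2% of those higher in MCR, with a median ratio of 1.12.

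Most of the members, 90 of 130, were higher in TCR, and 40 were higher in MCR. The share higher in TCR was 69.2%, beside 74.5% of the 4604 annotated contigs that passed the same CPM minimum. The edgeR quasi-likelihood test called contigs at an adjusted p below 0.05 and a log2 fold change of at least 1 in size. It called 101 members, beside 8.39% of all contigs tested and 3225 of the 4604 annotated contigs above. Of the members called, 29 were higher in MCR and 72 in TCR, beside 2.4% and 5.98% of all contigs. With the replicate number as a block the counts were 39 and 90, and the shares of all contigs were 20.1% and 15.4%, so that every member except the CRK10 contig TRINITY_DN6193_c0_g2 was called. Calls given below are without the block unless it is named. The pairing that the block takes is an assumption, which a check of the libraries set apart for pair 3 only. Leaving out MCR3 gave 26 and 79 (5.74% and 7.65% of all contigs). Leaving out TCR1 gave 4 and 21, TCR2 5 and 22, and MCR1 24 and 47. The shares of all contigs called in these last fits are not given, so a loss particular to the members cannot be read. Since the same contrast chose the members, these counts describe them and support nothing.

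The root types did not overlap in 122 members, beside 31% of all contigs tested and 4312 of the 4604 annotated contigs with the same CPM minimum. In 36 members every MCR library was above every TCR library and in 86 the reverse held, beside 10.7% and 20.3% of all contigs. The median log2 fold change was 3.44 among members higher in MCR and -3.05 among those higher in TCR, against 2.52 and -2.71 for annotated contigs with the same CPM minimum. Members higher in MCR summed to 223, 276 and 272 CPM in TCR1 to TCR3 and to 1558, 1369 and 1934 CPM in MCR1 to MCR3. Members higher in TCR summed to 5065, 5291 and 3886 CPM in TCR and to 917, 678 and 906 CPM in MCR. CPM values were not divided by contig length, so levels are compared between libraries and not between contigs. In whole roots, fewer cells of a type and less RNA per cell cannot be told apart.

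The split of each family between the root types is given as counts, which were not tested against each other or against the 74.5% above. Families were assigned by words of the description alone, so kinases of 1 structural type may be counted under different families. RLK1, with a lectin-like outer part, was counted with the other receptor-like kinases. The splits depend on that wording. The tips were higher in 53 of the 64 LRR kinases and the mature roots in 11, and in the 12 LRR proteins without a named kinase the split was 11 and 1. The 8 wall-associated kinases were 6 and 2, the 6 malectin receptors 4 and 2, and the 6 G-type lectin members 4 and 2. The 8 L-type lectin members were 4 and 4, and the jacalin-type lectins 1 and 1. More were higher in MCR among the 8 cysteine-rich RLKs (6 against 2) and the 9 other receptor-like kinases (6 against 3). The same held for the 4 contigs of 1 lectin kinase whose description names no lectin type (4 against 0). PERK1, a proline-rich extensin-like receptor kinase, was the single member of its kind and was higher in MCR. A pair of members, both matching AT4G25740, are no receptors but ribosomal S10-type proteins, taken in because the word plectin holds the word lectin. The larger, TRINITY_DN702_c0_g2, was at 535, 546 and 235 CPM in TCR and at 144, 109 and 89.9 CPM in MCR (log2 fold change -1.94, SE 0.40).

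**Figure D1:**
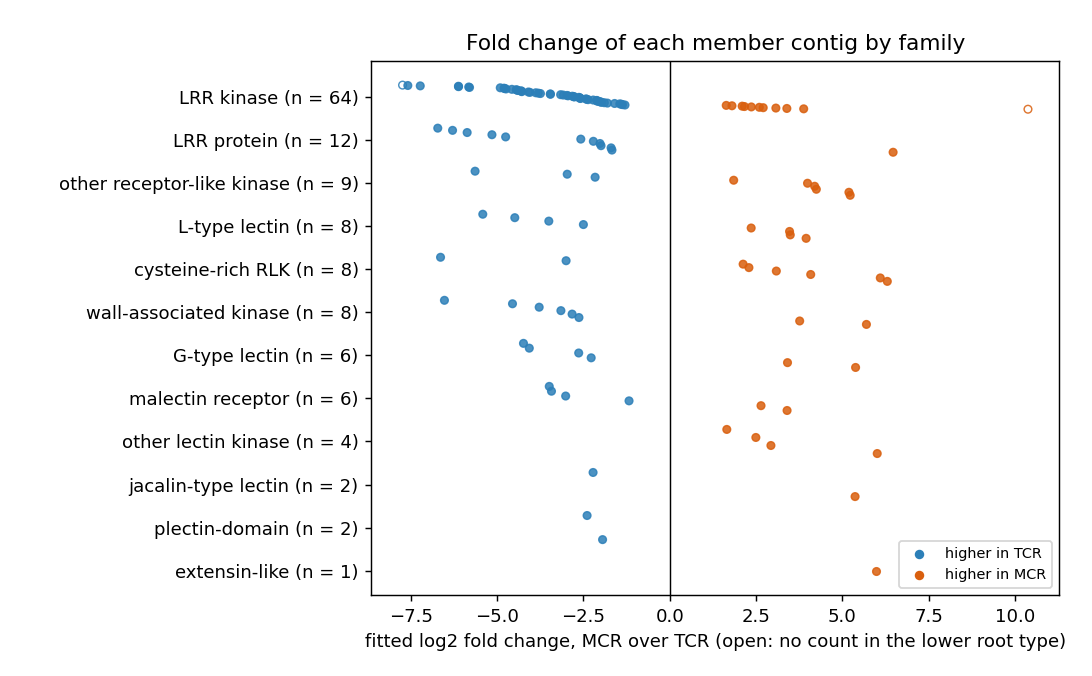
Fitted log2 fold change of MCR over TCR (horizontal axis) of each of the 130 member contigs, 1 point per contig, by family (vertical axis, with the number of contigs), blue for contigs higher in TCR and orange for those higher in MCR. Of the 64 LRR kinases 53 lie left of 0, whereas all 4 contigs of AT1G34300 (other lectin kinase) lie right of it, and the open points, with no count in the lower root type, have no bounded fold.

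Members on the list of meristem peptide receptors, 10 contigs from 8 of 18 listed genes, were all higher in TCR. The log2 fold changes of these 10 lay between -1.29 and -5.63, the groups did not overlap for any of them, and 9 were called (10 with the block). A further 5 contigs of listed genes were annotated but did not meet the rule, 3 higher in MCR and 2 in TCR. This and the other lists were chosen with results of these data known. BAM1, a relative of CLAVATA1 that binds CLE peptides, was matched by 2 contigs (TAIR10 chr5:26281826-26284945, forward strand, a protein of 1003 residues). TRINITY_DN2719_c1_g1 was at 302, 331 and 222 CPM in TCR1 to TCR3 and at 80.2, 62.3 and 55.1 CPM in MCR1 to MCR3, with a log2 fold change of -2.11 (SE 0.30). TRINITY_DN1021_c0_g1 was at 47.2, 49.0 and 44.0 CPM in TCR and at 7.47, 4.05 and 4.19 CPM in MCR (-3.16, SE 0.36). Both BAM1 contigs were higher in every TCR library than in any MCR library, with TCR3 the lowest of the tips. BAM3, the CLE45 receptor of the phloem in Arabidopsis, was at 31.6, 35.1 and 35.4 CPM in TCR and at 8.69, 8.17 and 2.98 CPM in MCR (TRINITY_DN24223_c0_g1, -2.36, SE 0.46).

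Receptors of root meristem growth factor (RGF) peptides, which keep the root stem cell area dividing in Arabidopsis, were matched by 4 members. RGFR1 (AT4G26540, TRINITY_DN2569_c0_g1) was at 256, 249 and 99.0 CPM in TCR and at 39.0, 49.9 and 41.5 CPM in MCR (-2.21, SE 0.41). RGI5 (AT1G34110, TRINITY_DN32656_c0_g1) was at 141, 147 and 45.3 CPM in TCR and at 8.14, 5.80 and 6.26 CPM in MCR (-4.05, SE 0.52). In both of these TCR3 was well below TCR1 and TCR2, as were the summed markers of dividing cells, and still above every MCR library. RGI4 (AT5G56040) was matched by TRINITY_DN1617_c0_g1, with 77.3, 83.0 and 74.2 CPM in TCR and 38.3, 32.6 and 24.7 CPM in MCR (-1.29, SE 0.27). Its other contig, TRINITY_DN1900_c0_g1, was at 53.2, 68.8 and 57.4 CPM in TCR and at 2.17, 3.12 and 1.22 CPM in MCR (-4.78, SE 0.44). Here TCR3 lay within the range of TCR1 and TCR2 or close to it, so that the RGF receptor contigs did not share 1 pattern over the tips.

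Of the other members on the meristem list, not all of which are known as meristem peptide receptors, IMK3 (TRINITY_DN13901_c0_g2) was at 94.4, 86.1 and 18.9 CPM in TCR and at 12.4, 8.23 and 4.92 CPM in MCR (-2.97, SE 0.66). IMK2 (TRINITY_DN28479_c0_g1) was at 42.5, 47.3 and 41.0 CPM in TCR and at 1.83, 0.312 and 0.486 CPM in MCR (-5.63, SE 0.71). Both are receptor-like kinases first described from meristems, and the low TCR3 value was seen in IMK3 and not in IMK2. SKM1 (TRINITY_DN945_c0_g1), a CLE peptide receptor known from Arabidopsis pollen tubes, was at 41.9, 50.6 and 49.4 CPM in TCR and at 12.9, 27.9 and 14.3 CPM in MCR (-1.36, SE 0.37), and was not called without the replicate block and was with it (-1.45). The part of dividing cells in these differences was not tested.

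BRI1, the receptor of brassinosteroid hormones at the cell surface, was matched by 2 members of 1 component (TAIR10 chr4:18324826-18328416, forward strand, 1196 residues). It was the single gene annotated, and with members, among 7 listed receptors of growth hormones and peptides. A further 1 annotated contig of BRI1 did not meet the rule and was higher in MCR. TRINITY_DN434_c0_g1 was at 93.4, 111 and 104 CPM in TCR and at 2.71, 2.49 and 10.5 CPM in MCR (-4.29, SE 0.64). TRINITY_DN434_c0_g2 was at 46.2, 53.4 and 45 CPM in TCR and at 0.271, 0.561 and 1.22 CPM in MCR (-6.12, SE 0.59). MCR3 was the highest of the mature roots in both, and far below any tip. A component groups contigs that share sequence in the assembly, so reads may have been split between its contigs and the value of either alone is uncertain.

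Of the 21 listed genes of brassinosteroid synthesis and signalling, which are not members, 10 were annotated, with 12 contigs. The tips were higher in 10 of these and mature roots in 2, and 9 and 0 were called. Over all 7819 annotated contigs, of any CPM, the tips were higher in 3609, or 46.2%, and 2476 were called higher in TCR and 799 in MCR. BRS1, a secreted carboxypeptidase that acts with BRI1, was at 33.9, 25.7 and 20.6 CPM in TCR and at 0.271, 0.187 and 0.243 CPM in MCR (-6.79, SE 0.47). The transcription factor BEH4 had 3 contigs with log2 fold changes of -1.96, -2.44 and -4.42. The synthesis enzymes CPD and DWF4 had -2.79 (SE 0.51) and -2.93 (SE 0.73), of which CPD was called. The 2 contigs higher in MCR, matching BSL2 and DWF1, had no count in MCR3.

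Members on the list of vascular and Casparian strip receptors, 8 contigs from 6 of 11 listed genes, were also all higher in TCR, and 2 annotated contigs of the list did not meet the rule, 1 in each direction. Of the 8 members 6 were called (8 with the block), 7 had no overlap between root types, and the log2 fold changes lay between -1.40 and -7.22. VRLK1, a vascular LRR kinase given below, is not on the list, and its 2 members were 1 higher in MCR and 1 in TCR. PXY, the receptor of the peptide that keeps the cambium dividing in Arabidopsis, was matched by 2 contigs of 1 component (TAIR10 chr5:24724541-24727842, reverse strand). TRINITY_DN4641_c2_g2 was at 35.9, 36.0 and 40.7 CPM in TCR and at 10.9, 2.25 and 2.80 CPM in MCR (-2.82, SE 0.64). TRINITY_DN4641_c2_g1 was at 68.1, 64.7 and 27.9 CPM in TCR and at 29.5, 15.3 and 16.1 CPM in MCR (-1.40, SE 0.45), so that TCR3 lay below MCR1 and the groups overlapped. PXL2, a relative of PXY, had the largest changes of the list. Its contig TRINITY_DN4092_c0_g2 was at 38.6, 47.2 and 57.1 CPM in TCR and at 0.0679, 0.0624 and 0.790 CPM in MCR (-7.22, SE 0.95). TRINITY_DN4092_c0_g1 was at 16, 13.2 and 31.8 CPM in TCR and at 0.136, 0.0624 and 0.851 CPM in MCR (-5.82, SE 1.00).

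PXC1, known from xylem and secondary wall formation, was at 125, 109 and 163 CPM in TCR and at 13.7, 5.49 and 4.07 CPM in MCR (TRINITY_DN6952_c0_g1, -4.09, SE 0.54). PXC3 was at 12.7 to 13.7 CPM in TCR and 0.407 to 0.790 CPM in MCR (TRINITY_DN10520_c0_g1, -4.39, SE 0.51). CEPR2, a receptor of CEP peptides that report nitrogen supply, was at 10.0 to 12.3 CPM in TCR and 0.0624 to 0.973 CPM in MCR (TRINITY_DN9977_c0_g1, -4.28, SE 0.89). The root types overlapped in none of these 3. GSO1, a receptor of the peptides that close the Casparian strip, was at 32.8, 32.0 and 76.9 CPM in TCR and at 9.03, 7.86 and 30.0 CPM in MCR (TRINITY_DN6392_c0_g1, -1.59, SE 0.63) and was not called without the replicate block and was with it (-1.74). Library 3 was the highest in both root types for GSO1. Xylem markers (3 of 6 listed genes, 5 contigs) summed to 475 to 528 CPM in TCR and 65.1 to 146 CPM in MCR, phloem markers (1 of 4, 4 contigs) to 136 to 220 and 33.1 to 75.5, and endodermis markers (2 of 6, 2 contigs) to 23.6 to 42.0 and 16.2 to 39.3. The part of these tissues in the receptor differences was not tested.

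**Figure D2:**
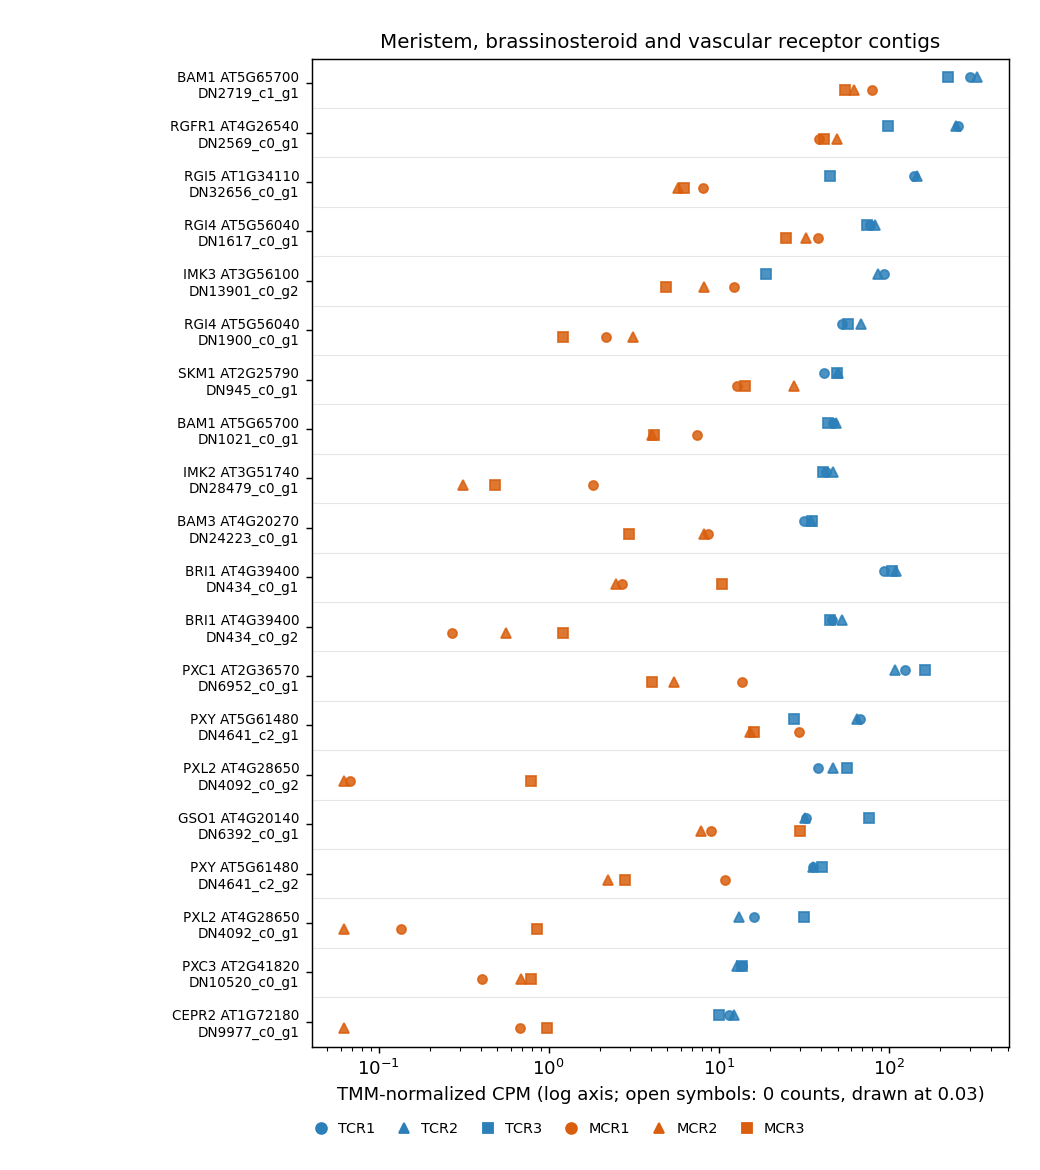
CPM (log axis) of the 20 member contigs on the lists of meristem, growth hormone (BRI1) and vascular receptors, 1 row per contig and 1 symbol per library, with TCR in blue and MCR in orange. All TCR symbols lie right of all MCR symbols except in the PXY contig DN4641_c2_g1, where TCR3 at 27.9 CPM is left of MCR1 at 29.5 CPM.

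The peptides that such receptors bind were few among the annotated contigs. Of 9 contigs of peptide ligands, the tips were higher in 8 and mature roots in 1, and 4 and 0 were called, to be read beside the 46.2% of all annotated contigs higher in TCR and the 2476 and 799 called. RGF2, a ligand of the RGF receptors, was at 65.7, 50.3 and 75.3 CPM in TCR and at 29.7, 0.374 and 2.07 CPM in MCR. RALFL33, of the RALF peptides that bind FERONIA and its relatives, had a contig at 39.2 to 42.8 CPM in TCR and 9.36 to 13.2 CPM in MCR (-1.81, SE 0.29). RALFL2, the 1 contig higher in MCR, had counts in MCR2 alone.

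Cytoplasmic kinases and other partners of the receptors had 14 contigs, of which tips were higher in 9 and mature roots in 5, and 4 and 0 were called, with the same shares of all annotated contigs beside them. PLL1, a phosphatase of the CLAVATA pathway, was at 406, 417 and 85.3 CPM in TCR and at 7.26, 2.87 and 4.01 CPM in MCR (TRINITY_DN2449_c0_g3, -6.00, SE 0.77). Its relative PLL4 went the other way in TRINITY_DN260_c0_g1, with 45.7, 58.4 and 96.1 CPM in TCR and 195, 116 and 278 CPM in MCR. A pair of the 14 match COBL4, a cell wall protein found through a word of its name, and are no signalling partners.

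Among LRR kinases with no place on a list, IRK (AT3G56370), which limits cell division in the Arabidopsis root, was at 246, 261 and 185 CPM in TCR and at 24.5, 13.9 and 8.63 CPM in MCR (TRINITY_DN3916_c0_g1, -3.88, SE 0.46). GHR1 (AT4G20940), known from the closing of stomata, was at 47.5, 46.3 and 30.9 CPM in TCR and at 0.679, 0.187 and 0.912 CPM in MCR (TRINITY_DN3969_c0_g1, -6.11, SE 0.63). AT5G43020, an LRR kinase, was at 15.9, 18.5 and 17.9 CPM in TCR and at 0, 0 and 0.243 CPM in MCR in TRINITY_DN5695_c0_g1 (-7.58, SE 1.14). None of these overlapped between root types, and the lowest tip was at least 30.9 CPM in GHR1 where no mature root reached 1 CPM. A further 27 LRR kinases higher in TCR, not named here by the rule, had log2 fold changes between -1.44 and -7.73 with a median of -2.97, and 23 were called (27 with the block).

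LRR proteins whose description names no kinase were higher in TCR in 11 of 12. AT5G66330 (TRINITY_DN8653_c0_g1) was at 20.8, 28.3 and 13.3 CPM in TCR and between 0.0624 and 0.304 CPM in MCR (-6.72, SE 0.70). AT3G20820 (TRINITY_DN4300_c0_g1) was at 49.4, 61.2 and 32.8 CPM in TCR and at 1.29, 0.0624 and 1.09 CPM in MCR (-5.86, SE 0.90). In both, TCR2 was the highest library and TCR3 the lowest tip. AT1G03440 (TRINITY_DN5246_c0_g1) had 265 counts over TCR and 3 over MCR, a ratio of 85.7 at equal library size with a 95% counting interval of 29.0 to 418. The exception, AT3G43740 (TRINITY_DN3349_c0_g1), had 209 counts over MCR and 2 over TCR, a ratio of 108 (29.4 to 895).

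Such low counts in the lower root type, 3 or fewer, were found in 8 members, and 2 of these had none. AT5G62710 (TRINITY_DN13202_c0_g1, an LRR kinase) had 79 counts over TCR and 0 over MCR, at least 25.6-fold higher in TCR against a floor of 3 counts over the root type. AT5G48540 (TRINITY_DN8244_c0_g1, related to the cysteine-rich RLKs) was at 9.73, 8.52 and 3.10 CPM in TCR, a ratio of 107 (36.4 to 523) over its 3 counts in MCR. Intervals and floors cover counting error only. A fold above 16 was fitted in 47 members, 33 of them higher in TCR.

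Malectin-domain receptors, 6 members from 3 of 17 listed genes, were split, and 7 annotated contigs of the list did not meet the rule, 4 higher in MCR and 3 in TCR. FERONIA (FER), which binds RALF peptides and watches over the cell wall during growth, was at 130, 135 and 165 CPM in TCR and at 34, 33.8 and 123 CPM in MCR (TRINITY_DN1684_c0_g1, -1.18, SE 0.54). MCR3 came close to the tips while MCR1 and MCR2 were far lower, and FER was not called without the replicate block and was with it (-1.46). ANX2, known in Arabidopsis from pollen tubes, was at 3.58, 6.13 and 7.62 CPM in TCR and at 23.5, 49.4 and 35.9 CPM in MCR (TRINITY_DN6322_c1_g1, 2.65, SE 0.44). HERK2 is given with the genes of both directions.

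CERK1, the LysM receptor kinase that senses chitin, was among the 40 members higher in MCR. It (TAIR10 chr3:7615543-7618530, reverse strand, 617 residues) was at 3.15, 2.76 and 3.21 CPM in TCR and at 81.2, 115 and 147 CPM in MCR (TRINITY_DN1743_c0_g1, 5.23, SE 0.36). The lowest mature root was far above the highest tip, and it was the single CERK1 contig among the members.

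The lectin kinase AT1G34300 (TAIR10 chr1:12503450-12505939, forward strand, 829 residues) was matched by 4 members, all higher in MCR and all called. TRINITY_DN901_c0_g1 was at 23.2, 25.8 and 35.3 CPM in TCR and at 235, 121 and 288 CPM in MCR (2.93, SE 0.40). TRINITY_DN11024_c0_g4 was at 0.215, 0.123 and 0.435 CPM in TCR and at 5.63, 10.3 and 36.0 CPM in MCR (6.01, SE 0.97). TRINITY_DN10873_c0_g1 had a log2 fold change of 2.50 (SE 0.44) and TRINITY_DN400_c0_g1 of 1.66 (SE 0.37). MCR3 was the highest library in all 4, and the groups overlapped in none. The contigs match 1 Arabidopsis gene and may be copies of each other, so their counts are not independent.

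Among L-type lectin kinases, 2 contigs matched AT5G10530, known as LecRK-IX.1 from resistance to *Phytophthora* in Arabidopsis. TRINITY_DN6391_c0_g1 was at 15.8, 26.4 and 31.7 CPM in TCR and at 98.7, 113 and 169 CPM in MCR (2.36, SE 0.38). TRINITY_DN2226_c0_g1 was at 5.94, 7.66 and 5.01 CPM in TCR and at 132, 65.8 and 12.3 CPM in MCR (3.49, SE 0.79). The order of the MCR libraries was reversed between these contigs, with MCR3 highest in the former and lowest in the latter. Among G-type lectin kinases, AT2G19130 was at 0.143, 0.613 and 0.599 CPM in TCR and at 10.8, 28.6 and 18.8 CPM in MCR (TRINITY_DN27_c0_g2, 5.38, SE 0.72), and its second contig TRINITY_DN19826_c0_g1 had 3.41 (SE 0.59). The 4 G-type members higher in TCR had log2 fold changes between -2.27 and -4.23. A jacalin-type lectin, AT1G19715, was at 0.245 to 0.599 CPM in TCR and at 4.41, 5.24 and 41.3 CPM in MCR (TRINITY_DN313_c0_g2, 5.37, SE 1.10).

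Cysteine-rich RLKs are known in Arabidopsis from responses to pathogens and oxidative stress, and 6 of the 8 members were higher in MCR. CRK10 (TAIR10 chr4:12138171-12140780, forward strand) was matched by 3 members, and its neighbour CRK11 (chr4:12141197-12143710, reverse strand) by 1. TRINITY_DN6193_c0_g1 was at 0.286, 0.0613 and 0.163 CPM in TCR and at 21.6, 13.5 and 6.57 CPM in MCR (6.30, SE 0.82). TRINITY_DN6193_c0_g2, of the same component, was at 4.87, 5.46 and 3.16 CPM in TCR and at 61.8, 1.19 and 3.34 CPM in MCR. Its place among the members higher in MCR rests on MCR1, since the fitted log2 fold change was -0.68 without that library. TRINITY_DN4057_c0_g1, the CRK10 contig of another component, had 4.09 (SE 0.54) with no overlap. AT3G22060, a relative of this family, was at 22.4, 41.2 and 6.37 CPM in TCR and at 108, 189 and 8.69 CPM in MCR (TRINITY_DN23210_c0_g1), so that library 3 was the lowest of both root types and the groups overlapped.

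Members on the immune receptor list, 5 contigs from 2 of 9 listed genes, were all higher in MCR, and 2 were called (5 with the block). Annotated contigs of the list that did not meet the rule were 3, with 2 higher in MCR and 1 in TCR. The members had log2 fold changes between 1.85 and 5.19. RLK1 (AT5G60900, TAIR10 chr5:24498467-24501494, reverse strand), a receptor kinase with a lectin-like outer part, was matched by 3. TRINITY_DN4025_c0_g1 was at 16, 21.8 and 20.8 CPM in TCR and at 42.3, 29.5 and 141 CPM in MCR (1.85, SE 0.60). TRINITY_DN4025_c1_g1 was at 0.0716, 0.368 and 0.272 CPM in TCR and at 3.12, 9.42 and 14.6 CPM in MCR (5.19, SE 0.92), and TRINITY_DN7830_c0_g1 had 4.25 (SE 0.81). MCR3 was the highest library in each RLK1 contig. MIK2 (AT4G08850), the receptor of SCOOP peptides, had 2 contigs of 1 component. TRINITY_DN2247_c1_g2 was at 2, 2.94 and 6.64 CPM in TCR and at 4.55, 17.0 and 30.7 CPM in MCR, with MCR1 below TCR3. TRINITY_DN2247_c1_g1 was at 0.429 to 1.14 CPM in TCR and at 1.29, 7.98 and 12.8 CPM in MCR. The MIK2 contigs were not called without the replicate block and were with it (1.99 and 3.09).

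**Figure D3:**
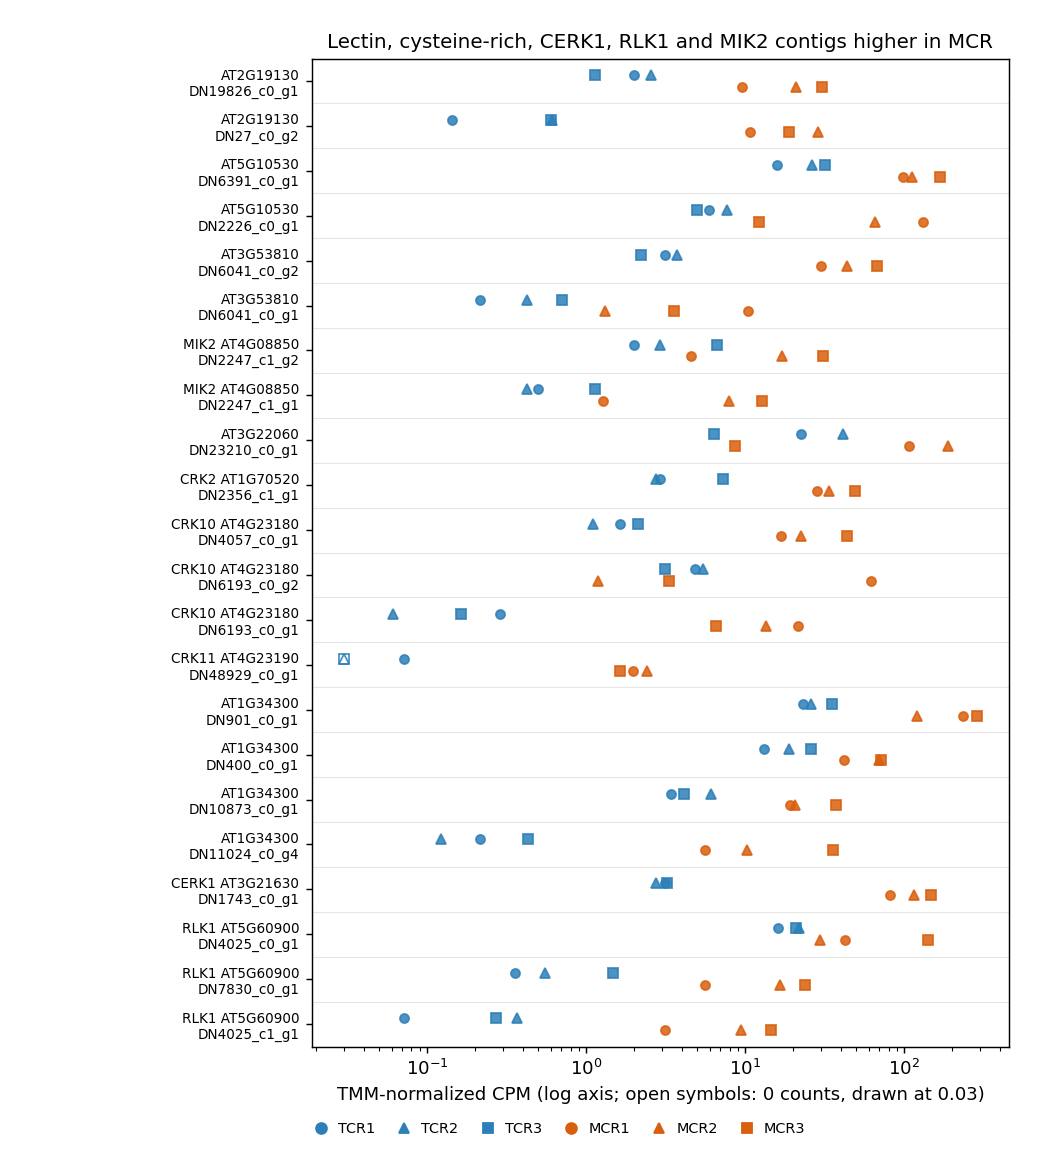
CPM (log axis) of 22 contigs higher in MCR from the lectin and cysteine-rich families and of CERK1, RLK1 and MIK2, 1 row per contig and 1 symbol per library, with open symbols for 0 counts. CERK1 is at 2.76 to 3.21 CPM in TCR and 81.2 to 147 CPM in MCR, whereas symbols of the root types overlap in the contigs DN23210_c0_g1, DN6193_c0_g2 and DN2247_c1_g2.

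Of 9 listed receptors around ERECTA and HAESA, which pattern organs, none was matched by a member, and of 8 listed genes of root hairs and tip growth 1 was. Annotated contigs that did not meet the rule were 3 on the former list, 2 higher in MCR and 1 in TCR. On the latter list they were 3, all higher in MCR. MRH1 (AT4G18640), an LRR kinase needed for the shape of root hairs in Arabidopsis, was at 27.0, 28.2 and 40.1 CPM in TCR and at 91.8, 60.3 and 145 CPM in MCR (TRINITY_DN3525_c0_g2, 1.64, SE 0.39). The root hair expansin EXPA7, the 1 of 6 root hair markers annotated, was at 8.4 to 22.5 CPM in TCR and at 30.7, 60.8 and 150 CPM in MCR, and its part in the MRH1 difference was not tested. PERK1 was at 0.0544 to 0.613 CPM in TCR and at 4.48, 1.5 and 46.8 CPM in MCR (TRINITY_DN2529_c0_g1, 5.99, SE 1.58), most of it from MCR3. AT1G56120, an LRR kinase, was at 27.4, 27.9 and 18 CPM in TCR and at 201, 56.4 and 57.1 CPM in MCR (TRINITY_DN2356_c0_g1, 2.10, SE 0.56), most of it from MCR1. PERK1 (4.84) and AT1G56120 (1.85) were not called without the replicate block and were with it, and their root types did not overlap.

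An Arabidopsis gene was matched by contigs of both directions in 7 cases, with 20 members. WAK2 (TAIR10 chr1:7444997-7447345, forward strand), a kinase that binds pectin of the cell wall, had 4 contigs. TRINITY_DN1429_c0_g1 was at 65.5, 62.2 and 91.6 CPM in TCR and at 10.2, 9.29 and 5.17 CPM in MCR (-3.15, SE 0.38), and TRINITY_DN8468_c0_g1 had 236 counts over TCR and 2 over MCR. TRINITY_DN8456_c0_g1 was at 1.00, 1.23 and 2.34 CPM in TCR and at 36.1, 9.79 and 16.8 CPM in MCR (3.77, SE 0.65), and TRINITY_DN28635_c0_g1 was at 0.0544 to 0.245 CPM in TCR and at 3.12, 15.7 and 1.70 CPM in MCR (5.70, SE 1.22). All 4 WAK2 contigs were called and came from different components. The members matching WAK3 and WAK5, whose Arabidopsis genes lie beside WAK2 on chromosome 1, were 2 each and all higher in TCR. Their log2 fold changes lay between -2.63 and -4.55, and 1 of these 4 was called. A WAK5 contig below the CPM minimum was higher in MCR.

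HERK2, a malectin-domain kinase of cell growth, had 4 contigs, of which 3 favoured the tips and 1 the mature roots. TRINITY_DN3784_c0_g1 was at 1.15, 1.10 and 1.80 CPM in TCR and at 5.90, 3.37 and 33.7 CPM in MCR (3.40, SE 0.94), most of it from MCR3, and was not called without the replicate block and was with it (2.75). TRINITY_DN1327_c1_g3 was at 19.3, 20.8 and 15.4 CPM in TCR and at 0.882, 0.437 and 3.83 CPM in MCR (-3.42, SE 0.82). TRINITY_DN15157_c0_g1 was at 6.07 to 7.40 CPM in TCR and 0.669 to 1.12 CPM in MCR (-3.01, SE 0.57). The other, TRINITY_DN1327_c1_g1, had no count in MCR1 or MCR3 and 1.5 CPM in MCR2, above the 0.925 CPM of TCR3.

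CIK4 (AT5G45780), a co-receptor of CLAVATA-type receptors, was the 1 gene of 14 on the co-receptor list with members. Annotated contigs of that list that did not meet the rule were 3, all higher in TCR. TRINITY_DN2400_c1_g1 was at 17.8, 12.6 and 7.62 CPM in TCR and at 79.8, 63.4 and 53.0 CPM in MCR (2.37, SE 0.39). TRINITY_DN16666_c1_g1 was at 12.3, 13.9 and 4.41 CPM in TCR and at 1.43, 0.748 and 0.608 CPM in MCR (-3.45, SE 0.69). The groups overlapped in neither contig, and library 3 was the lowest of its root type in both.

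AT3G47570, an LRR kinase, was the 1 gene whose opposite contigs came from 1 component, with 4 contigs in the count table. TRINITY_DN3006_c1_g2 had no count in TCR and 4.41, 17.8 and 8.94 CPM in MCR, at least 171-fold higher in MCR against the floor of 3 counts. TRINITY_DN3006_c1_g4 was at 124, 127 and 71.8 CPM in TCR and at 34.7, 22.1 and 30.0 CPM in MCR (-1.89, SE 0.34). The sum of the pair was higher in the tips, and the split of reads between them is uncertain. Its other contig, TRINITY_DN10894_c1_g1, was at 7.66, 10.4 and 10.4 CPM in TCR and at 5.36, 0.748 and 0.547 CPM in MCR.

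The L-type lectin kinase AT3G53810, known from pollen development, had TRINITY_DN6041_c0_g2 at 3.15, 3.74 and 2.23 CPM in TCR and at 29.9, 43.8 and 67.8 CPM in MCR (3.95, SE 0.44). Its contig TRINITY_DN134748_c0_g1 was at 8.09, 14 and 6.53 CPM in TCR and at 0.0679, 0.125 and 2.31 CPM in MCR (-3.50, SE 1.27). The former was called, and the latter was not without the replicate block and was with it (-4.58). A second contig of the component, TRINITY_DN6041_c0_g1, was at 0.215 to 0.708 CPM in TCR and at 10.5, 1.31 and 3.59 CPM in MCR and was not called without the replicate block and was with it (3.02).

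VRLK1 (AT1G79620), a vascular LRR kinase, was at 6.37, 10.2 and 8.55 CPM in TCR and at 24.4, 20.5 and 42.9 CPM in MCR in TRINITY_DN317_c0_g2 (1.80, SE 0.41). In TRINITY_DN6284_c0_g1 it was at 25.9, 25.1 and 43.1 CPM in TCR and at 7.74, 6.86 and 9.36 CPM in MCR (-1.97, SE 0.36). The pair came from different components, and their root types were clearly apart in opposite directions. AT2G37050, an LRR kinase, was at 5.01, 4.29 and 2.45 CPM in TCR and at 12.5, 16.2 and 48.2 CPM in MCR in TRINITY_DN11778_c0_g1 (2.71, SE 0.63). In TRINITY_DN4559_c0_g1 it was at 37.1, 35.8 and 23.1 CPM in TCR and at 9.57, 7.48 and 5.29 CPM in MCR (-2.10, SE 0.38). All 4 of these contigs were called and had no overlap between root types.

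**Figure D4:**
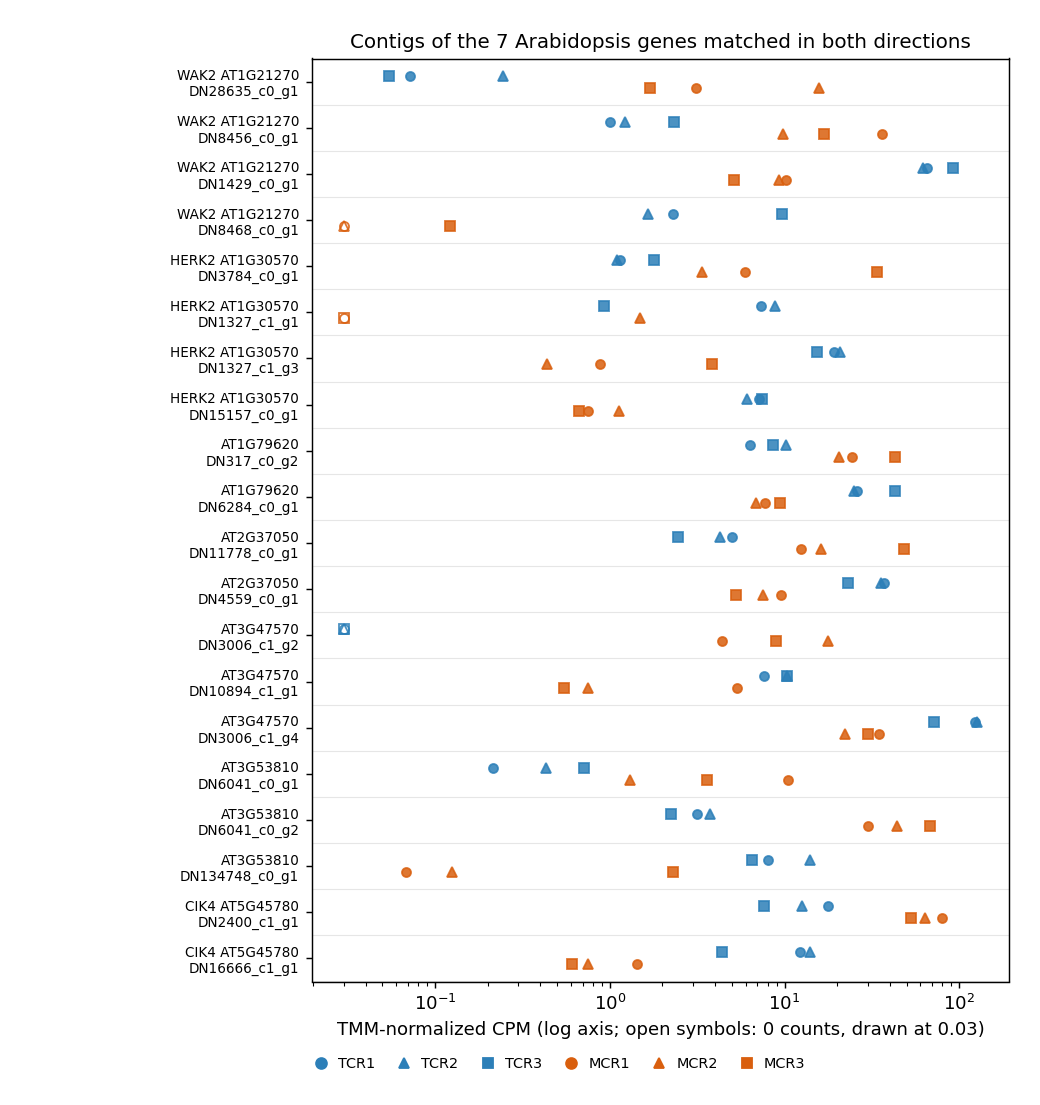
CPM (log axis) of the 20 member contigs that match the 7 Arabidopsis genes found in both directions, 1 row per contig and 1 symbol per library, with TCR in blue, MCR in orange and open symbols for 0 counts. Within each gene at least 1 contig has orange to the right and at least 1 has blue to the right, as in CIK4, at 53.0 to 79.8 CPM in MCR in DN2400_c1_g1 and 0.608 to 1.43 CPM in MCR in DN16666_c1_g1.

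Further features of the members were counted. The 130 contigs matched 93 Arabidopsis genes, of which 27 were matched by more than 1 member (64 members), and 10 components held 2 members each. A kinase was named in 110 descriptions, the field that the rule searched, so this count follows in part from the rule. The matched Arabidopsis proteins had a median of 748 residues (176 to 1249), with 732 for members higher in MCR and 788.5 for those higher in TCR. No sequence of a contig was at hand.

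Libraries of 1 root type varied less in the members higher in TCR. Among the 90 members higher in TCR, the highest TCR library was a median of 1.49 times the lowest, whereas among the 40 higher in MCR the highest MCR library was 3.77 times the lowest (1.77 and 2.52 for annotated contigs with the same CPM minimum). MCR3 was the highest in 25 of the 40 members, or 62.5%, where it was 46.2% for the annotated contigs. The median ratio of MCR3 to the mean of MCR1 and MCR2 was 1.64 for these members and 1.12 for the annotated contigs. TCR3 was the lowest tip in 54 of the 90, with a median ratio to the other tips of 0.880 against 0.651.

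The direction of all 130 members was kept by the means without MCR3, without TCR3 and without both, and within library pairs 1 and 3. Within pair 2 it was kept by 129, the exception being the CRK10 contig TRINITY_DN6193_c0_g2. The members were selected on these same libraries, which nearly fixes their direction beforehand, so nothing about stability is read from these counts. In 3 members, within the root type with the higher mean, the lowest library was below 0.1 of the mean of the other 2 on the deposited CPM, and all 3 were higher in MCR, the contigs of PERK1, AT3G22060 and TRINITY_DN6193_c0_g2 of CRK10.

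**Figure D5:**
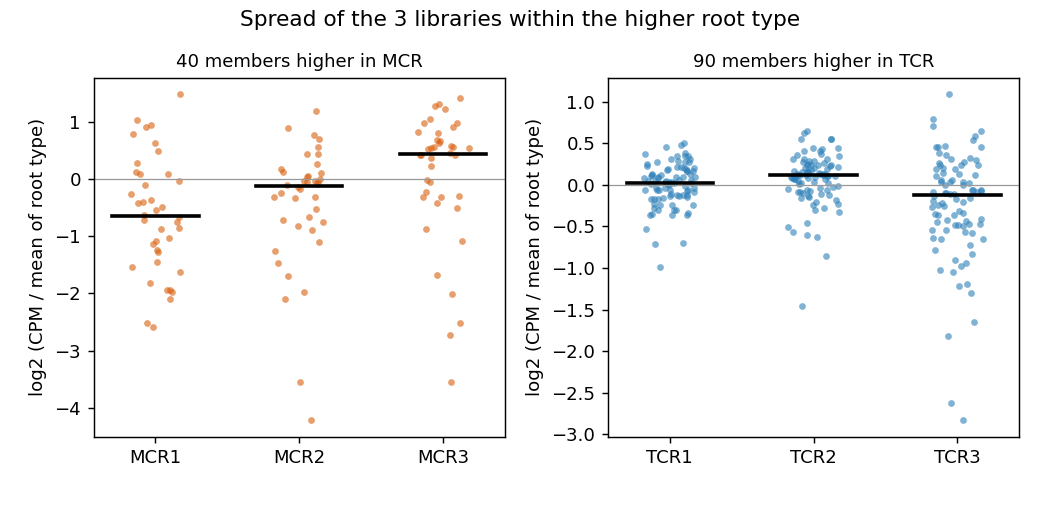
Ratio of each library to the mean of its root type (log2 axis) for the 40 members higher in MCR (left) and the 90 higher in TCR (right), 1 point per contig with the median as a bar. MCR3 was the highest library in 25 of the 40, and TCR3 the lowest in 54 of the 90.

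The CPM minimum of 1 set the edge of the group. On the deposited CPM, the members just inside had a lowest library of 1.16 CPM (TRINITY_DN6041_c0_g1 of AT3G53810 and TRINITY_DN1327_c1_g1 of HERK2), 1.21 CPM (TRINITY_DN2247_c1_g1 of MIK2) and 1.25 CPM (TRINITY_DN30843_c1_g1, a G-type lectin kinase). Just outside were contigs of RLK1 at 0.874 CPM, WAK5 at 0.705 CPM, AT4G31250 at 0.642 CPM and a mannose-binding lectin at 0.584 CPM, all higher in MCR.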

How the data were processed

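RNA of TCR and MCR of *H. laurina* (3 libraries each) was sequenced from poly(A)-selected libraries. Reads trimmed by Trimmomatic 0.39 were assembled de novo by the authors using Trinity, and estimated counts per contig from Salmon 1.9.0 were deposited (versions from the submitters' processing notes). The deposited CPM of the annotated table were normalized by the authors with edgeR 4.0.14, with 0.01 added, and that table also holds the authors' fold changes and p-values, which were not used. Contigs were annotated by the best match to TAIR10, and the strand setting of the counting is not given in the sources used here. Contigs outside the annotated table carry no name.

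The members were found with the deposited CPM. All other values came from the deposited estimated counts after rounding, with totals of 13583740 to 19119494 per library. A filter kept contigs whose mean CPM reached 0.4 in a root type (49813 of 183999) and compared with edgeR 4.0.16 in R 4.3.3 (TMM factors 0.868 to 1.18, quasi-likelihood test, Benjamini-Hochberg adjustment). Calls needed an adjusted p below 0.05 and a log2 fold change of 1 or more in size. The SE is the size of the log2 fold change divided by the square root of F. Ratios with 1 to 3 counts have exact binomial 95% intervals. The fit was tested on simulated data. The tables were made with Python 3.11.15 and scipy 1.17.1.

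Libraries with the same number were checked for pairing by the correlation, over 14706 contigs with a mean CPM above 5, of deviations from each root type's mean. It was 0.336, 0.363 and 0.477 for pairs 1, 2 and 3 and between -0.502 and 0.316 for other pairs. All 3 were above 0.1, but so were TCR2 with MCR1 (0.316) and TCR1 with MCR2 (0.185). Only pair 3 was thus set apart by this limit. The numbers, which come from the titles alone, were still taken to pair the samples. A fit with the number as a block was made beside that without it, and its calls rest on that assumption.

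Named members were the 8 in each direction with the largest fold change among those that reached a mean CPM of 5 without overlap, the 5 in each direction with the highest mean CPM, those on a role list, and all members of a gene matched in both directions. Further names were picked with their values in view, namely the contigs around the CPM minimum, AT5G62710, AT3G43740, WAK3, WAK5, CRK11 and further contigs of genes already named. The members, lists and rules were chosen with earlier results of these data known. Alternatives were other filters and size factors, DESeq2 1.42.0, limma-voom (limma 3.58.1), the block, each library left out, a CPM minimum of 2, no fold-change minimum and each Arabidopsis gene counted once. The directions by library pair and without MCR3 and TCR3 were added after the data were seen.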

Additional observations from a re-analysis of the deposited data

How the results depend on the processing

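The main counts of called members were 29 higher in MCR and 72 higher in TCR, and since the same contrast chose the members, a call kept says little about stability. Leaving out 1 library at a time gave 4 to 26 members higher in MCR and 21 to 79 higher in TCR, with the lowest counts without TCR1 (4 and 21) and without TCR2 (5 and 22). limma-voom called 19 members higher in MCR, while its 71 higher in TCR and both counts under the other filters, size factors and DESeq2 stayed within 1.5 times the main counts (27 to 40 and 65 to 90). A CPM minimum of 2 left 25 and 69, and counting each Arabidopsis gene once 21 and 61. With the replicate number as a block, 39 and 90 were called, with all 29 and all 72 among them. Shares of all contigs called are given above for the main fit, the block and the fit without MCR3 only. Changes of the counts in the other fits cannot be told from a change over all contigs. The log2 fold change of TRINITY_DN6193_c0_g2 (CRK10) ranged from -0.68 without MCR1 to 3.13 without MCR2 when 1 library was left out, the 1 member to change sign in any alternative, and its higher value in MCR rests on MCR1. The 3 uneven members became 13 with a fraction of 0.2 and 42 with 0.5, which follows from the wider limit. Contigs near 1 CPM rest on few counts, and reads of contigs in 1 component may be split, so that these values are the least certain. DESeq2 gave no adjusted p for 2 members.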

Other observations

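The words of the rule were also found in 72 annotated contigs that stayed below the CPM minimum, 64 higher in MCR and 8 higher in TCR. Of these, 1 was called higher in MCR and 0 higher in TCR, and the root types did not overlap in 14. With them, the words were found in 202 contigs, of which 48.5% were higher in TCR, beside 46.2% of all 7819 annotated contigs, so the split of the 130 members between root types depends on the CPM minimum.

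The members that follow are outside the rule for named members and were picked with their values in view. The cysteine-rich RLK CRK2 (TRINITY_DN2356_c1_g1) was at 2.93, 2.76 and 7.29 CPM in TCR and at 28.2, 33.5 and 49.3 CPM in MCR (log2 fold change 3.09, SE 0.51). The LRR kinase AT1G74360 (TRINITY_DN1182_c1_g1), known as NILR1 from the response to nematodes, was at 7.30, 8.34 and 11.7 CPM in TCR and at 78.1, 46.5 and 41.2 CPM in MCR (2.60, SE 0.38). PR5K, a kinase whose outer part resembles a thaumatin, had 2 contigs higher in MCR, with 4.20 (SE 1.10) and 3.99 (SE 0.86), of which the latter was called and the former (TRINITY_DN10833_c0_g1) was not without the replicate block and was with it (4.31). FEI1, an LRR kinase of cell wall synthesis in the root, was at 63.1, 57.1 and 53.5 CPM in TCR and at 11.3, 7.36 and 10.4 CPM in MCR (TRINITY_DN27342_c0_g1, -2.58, SE 0.30).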
